A study of Mus musculus with 2 samples.

Results

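The genes described here encode the acid-making pump and the best-known proteases of the lysosome, read in primary osteoblasts of wild-type and Slc39a13-KO mice. They were taken by name. Every probe set annotated to exactly 1 gene symbol was a member if the symbol began with Atp6v0 or Atp6v1, was Cts followed by 1 letter, or was Lamp1, Lamp2, Acp2 or Acp5. This gave 84 of the 34945 probe sets with 1 symbol, for 42 of 18194 genes, which were 20 subunits of the vacuolar H+-ATPase (V-ATPase), 18 cathepsins, 2 lysosomal membrane glycoproteins and 2 acid phosphatases. The wild-type group and the Slc39a13-KO group were 1 array each, of cells released from the skull vault of newborn mice with collagenase and dispase and then cultured in serum, with no treatment named. In the Slc39a13-KO mice internal exons of the gene for the zinc transporter Slc39a13 (ZIP13) were replaced by a Neo cassette through targeting in embryonic stem cells. For neither culture do the sources used here give strain, sex or how many pups were pooled. Neither genotype was replicated, so no test was possible and every difference below is between 2 arrays.

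The lysosome is an acidic organelle in which proteins, lipids and glycans are broken down. The V-ATPase keeps it acid. Its V1 sector, in the cytosol, splits ATP, and the rotation this drives in the membrane sector V0 carries protons into the lumen, where the cathepsins, proteases made as inactive precursors, mature and work. In bone the same machinery has a second use, because osteoclasts place the pump in their outer membrane and secrete cathepsin K and the acid phosphatase Acp5 to dissolve mineral and collagen, while in osteoblasts and fibroblasts cathepsins take part in breaking down collagen that was taken up.

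Slc39a13 itself gave 1309 (wild-type) and 90.4 (Slc39a13-KO) in MAS5 units on 1 probe set, whose place relative to the deleted exons was not established. Paired values below are in the same order, wild-type first. A floor was set at the median of all signals, 85.1, and a gene was counted as measured if a probe set lay above it in at least 1 array. Of 10 osteoblast markers listed, 6 had a probe set annotated to that symbol alone, and Bglap, Bglap2, Spp1 and Runx2 were not read. The type I collagen genes Col1a1 and Col1a2 and the matrix gene Sparc were bright in both arrays. Alpl had only 70.6 and 197, at least 2.32-fold higher in Slc39a13-KO. Sp7 had 94.8 and 153, and Ibsp lay below the floor in both, so Alpl, Sp7 and Ibsp were dim. Chondrocyte markers stood higher in the Slc39a13-KO array for 6 of 6 genes. Their median log2 ratio was at least 5.42, a bound because 4 of them had a wild-type signal below the floor. Whether the cell make-up of the cultures bears on the lysosomal genes was not tested, and in bulk RNA fewer cells of a type and less RNA per cell cannot be told apart. The 3′ to 5′ signal ratio was 1.30 and 1.26 for Actb and 0.796 and 0.752 for Gapdh, so these controls were close between the arrays.

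Few lysosomal genes differed by 2-fold, and the V-ATPase subunits had a median below that of all genes. Of the 42 members 31 were measured. A gene was called when its mean ratio was 2-fold or more, a size taken from the study's methods, with all measured probe sets of the same sign. Ctsf and Ctss were called higher in the Slc39a13-KO array, which is 2 of 31 members beside 8.01% of all 12269 measured genes. Atp6v0e2 was called lower, which is 1 of 31 beside 5.93% of all genes. Both shares are close to the background, so 2-fold calls did not set these genes apart. Below that size the V-ATPase subunits had a median log2 ratio (Slc39a13-KO minus wild-type) of -0.37, the cathepsins of 0.26 and all measured genes of 0.11. The cathepsin median depended on the handling of dim probe sets. It lay 0.15 above that of all genes as deposited, 0.03 above with the floor at the 30th percentile, 0.04 above among genes with a mean signal of at least 1000, and on the other side, by -0.15, with no floor.

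At a mean difference of at least 1.5-fold, 7 members were higher, beside 19.8% of all genes, and 3 were lower, beside 12.5%. The 7 were Ctsa, Ctsb, Ctsf, Ctso, Ctss, Lamp2 and Atp6v1e2, so 5 of 12 measured cathepsins were among them. The 3 lower genes, Atp6v0b, Atp6v0d1 and Atp6v0e2, were all subunits of the V0 sector. The remaining 21 members lay within 1.5-fold.

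**Figure D1:**
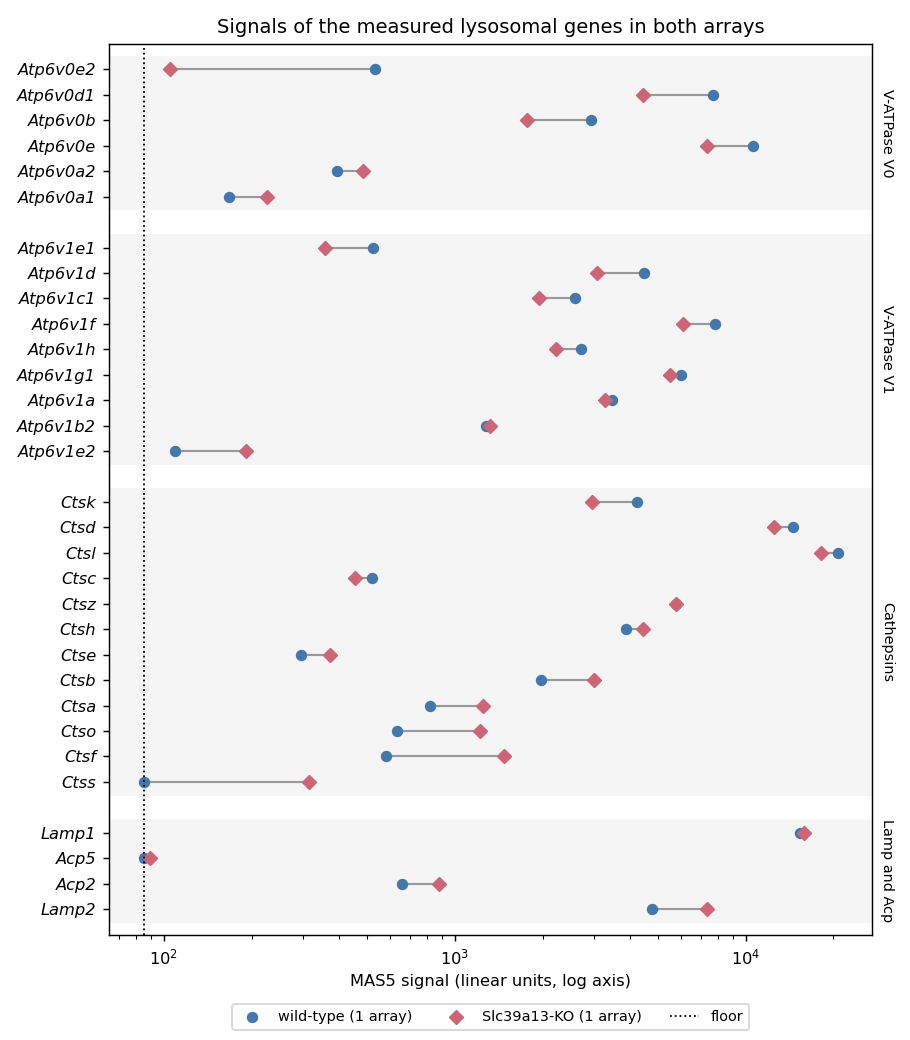
MAS5 signals (horizontal, log axis) of the 31 measured members in the wild-type array (blue circles) and the Slc39a13-KO array (red diamonds), as geometric means over measured probe sets, with the floor of 85.1 dotted. The red diamond lies left of the blue circle for 11 of 15 V-ATPase subunits, and right of it for 7 of 12 cathepsins and 4 of 4 Lamp and Acp genes.

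Of the V-ATPase subunits 15 were measured, and 11 of them (73.3%) had a log2 ratio below 0, beside 41.7% of all measured genes. Bright genes as a whole leaned to the same side. Among genes with a mean signal of at least 1000 the share below 0 was 53.7% and the median log2 ratio -0.05, and of the 10 subunits this bright 9 were below 0, with a median of -0.38. The only bright subunit on the other side was Atp6v1b2.

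In the membrane sector V0, the proton channel, 4 of 6 measured subunits had log2 ratios below 0, and they were those of the d, c″ and e type. Atp6v0d1, which couples the rotor of V0 to the central stalk, read 7716 and 4420.2 on its only probe set, a 1.75-fold difference. Atp6v0b, a proteolipid of the rotor ring (subunit c″), had 3813 and 2812, 3360.2 and 2366, and 1952 and 841 on its 3 probe sets, all lower in Slc39a13-KO, with a mean log2 ratio of -0.72 (SD 0.43 between probe sets of the same arrays). All 3 carry a suffix that marks probes shared with other transcripts. Atp6v0e, a small membrane subunit, had 10616 and 7353, a log2 ratio of -0.53.

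Atp6v0e2, a second gene for the e subunit, was the member furthest from equality in the lower direction. Its single probe set read 530.4 and 105, a 5.07-fold difference. The Slc39a13-KO signal lay only a little above the floor, and with the floor raised to the 70th percentile of all signals the log2 ratio was -0.73 and the gene was no longer called. Both genes of the e subunit were thus lower.

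The a subunits, which form the path of the proton and direct the pump to one membrane or another, had mean log2 ratios above 0, and neither was called. Atp6v0a2 had log2 ratios of 0.05, 0.28 and 0.55 on its 3 probe sets. For Atp6v0a1 the probe sets disagreed in sign. The brightest had 418 and 341 and another 152 and 111, both lower in Slc39a13-KO, but the other two had 108 and 281 and 112 and 242, both higher. The SD of 0.94 between them was the highest of any member, so the gene mean of 0.44 describes none of them. Tcirg1, the a3 subunit of the osteoclast pump, is no member by its name and had 538 and 369.

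In the cytosolic sector V1, which holds the ATPase, no subunit was called, and 7 of 9 measured subunits were below 0. Subunits of the stalks were the furthest below. Atp6v1d, of the central rotor stalk, had 5581 and 3375, 4531 and 2742, and 3562 and 3146 on its 3 probe sets, a mean log2 ratio of -0.54 (SD 0.32). Atp6v1e1, of the peripheral stalks, had 5705 and 3679 on its brightest probe set, and its mean over 3 was -0.55 (SD 0.37), with 1 of them at the floor in the Slc39a13-KO array. Atp6v1c1, which joins the peripheral stalks to V0, was lower on 3 of 3 probe sets, with a mean of -0.40 (SD 0.24).

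The other V1 subunits were closer between the arrays. Atp6v1f, of the central stalk, had 7805 and 6058. Atp6v1h, which regulates the pump, had 2707 and 2233, but its other probe sets lay below the floor, and the mean was 0.49 under a 30th percentile floor, which lets 1 of them in, and 1.28 under none. The subunits of the catalytic head were nearly equal, with mean log2 ratios of -0.09 for Atp6v1a, which splits ATP, and 0.05 for its partner Atp6v1b2. For Atp6v1g1, of the peripheral stalks, 1 probe set was lower (14071 and 9984) and 1 higher (2557 and 3031). Atp6v1e2, the testis form of subunit E, was the V1 subunit furthest above 0 (109 and 191, log2 ratio 0.81), at a signal near the floor.

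The 5 V-ATPase subunits not measured were forms restricted to certain tissues. Atp6v0a4 and Atp6v1b1 belong to the pump of kidney and inner ear, Atp6v0d2 to that of osteoclasts, Atp6v1c2 to that of epithelia and Atp6v1g2 to that of neurons, and the highest signal of any of their probe sets was 83.8. The proteolipid subunit c was not analysed here. The osteoclast form Atp6v0d2 had no signal above 73.9 in either array.

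**Figure D2:**
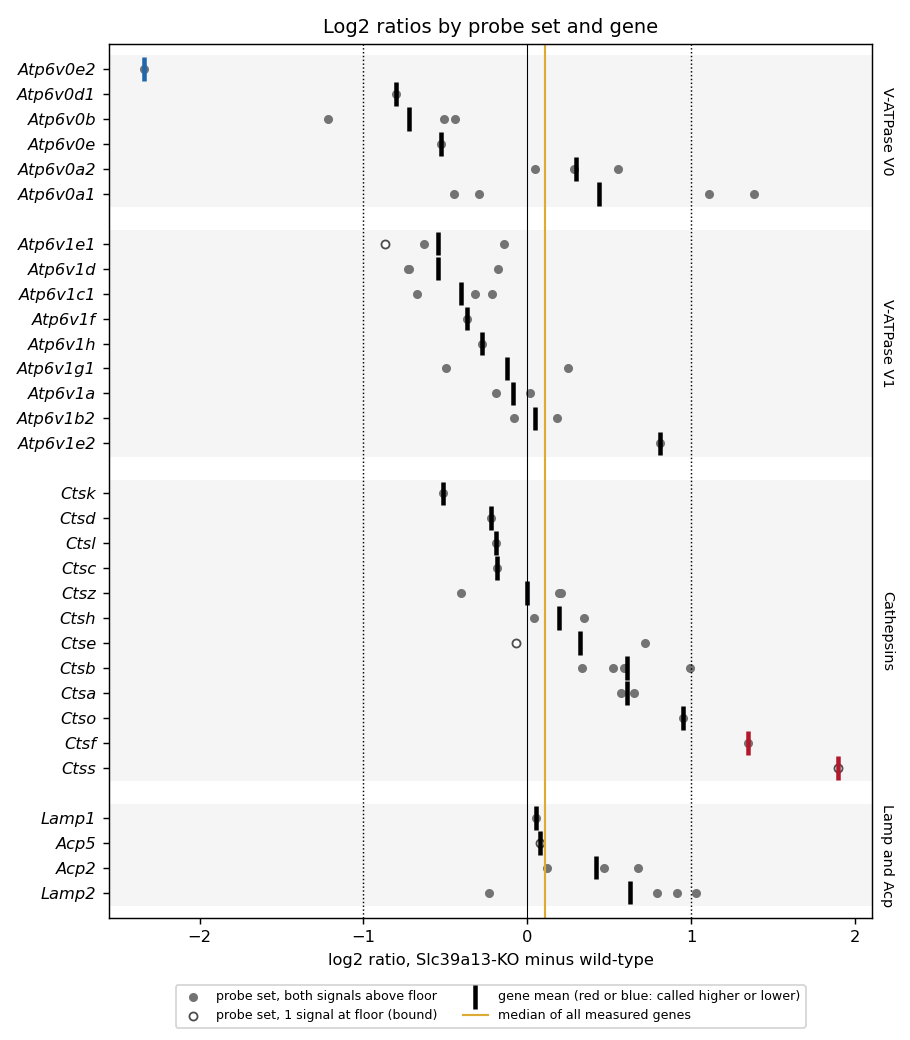
Log2 ratios (horizontal, Slc39a13-KO minus wild-type) of each measured probe set (grey points, open for bounds set by the floor) and each gene mean (vertical bars, with called genes in red where higher and in blue where lower), with the median of all measured genes as a yellow line and 2-fold differences dotted. Bars of 12 of 15 V-ATPase subunits lie left of the yellow line and bars of 7 of 12 cathepsins right of it, and the points of Atp6v0a1 lie on both sides of 0.

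Among the cathepsins 12 of 18 were measured, 7 with a log2 ratio above 0 and 5 below, beside 58.3% of all measured genes above 0, so the count of signs did not set the family apart. Ctsf, a cysteine cathepsin of wide expression, read 580.1 and 1475 on its measured probe set, a 2.54-fold difference. Its other probe set was below the floor in both arrays (16.9 and 5.82), and a mean taken over both without a floor was -0.10, so the call rests on 1 probe set. Ctso, another cysteine cathepsin, had 632 and 1221, a 1.93-fold difference just short of the threshold. Its second probe set, at 50.2 and 15.7, likewise lay below the floor, and the mean over both was 0.21 under a 30th percentile floor and -0.36 under none.

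Ctsb and Ctsa were above 0 on every measured probe set. Ctsb, the cysteine protease that trims peptides in most lysosomes, was higher in Slc39a13-KO on 4 of 4 measured probe sets, with 9153 and 13164.0 on the brightest and 5732 and 11407 on the next. The mean log2 ratio was 0.61 (SD 0.28), with 0.33 for the lowest probe set and 0.99 for the highest. Another probe set (10.6 and 4.59) lay below the floor, and the mean was 0.25 without a floor. Ctsa, a serine carboxypeptidase that also stabilises lysosomal β-galactosidase and neuraminidase, had 5092 and 7564 on one probe set and 132 and 207 on the other, a mean of 0.61 (SD 0.06).

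Ctsl, Ctsd and Ctsk, all with high signals, had log2 ratios below 0 and within 1.5-fold. Ctsl, a cysteine endopeptidase, had 20680.5 and 18078. Its other probe set (38.5 and 5.17) lay below the floor, and without a floor the mean was -1.55. Ctsd, the main aspartic protease of lysosomes, had 14519 and 12449. Ctsk, the collagen-cleaving protease best known from osteoclasts, had 4227 and 2956, a log2 ratio of -0.52 and the lowest of the 12 measured cathepsins. Its signal was high in both arrays, while Acp5, the other product that marks osteoclasts, had raw signals of 29.9 and 89.6 around the floor. Of 9 osteoclast markers 6, among them Calcr, Dcstamp, Ocstamp and Mmp9, lay below the floor in both arrays. Over all genes 12269 of 18194 were measured. The measured markers were Nfatc1 (mean signals 162 and 160), Oscar (86.9 and below the floor) and Itgb3 (209 and below the floor, called lower).

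Ctsh, Ctsc and Ctsz had mean log2 ratios close to 0. Ctsh, an aminopeptidase, had a mean log2 ratio of 0.19 and Ctsc, which activates serine proteases of immune cells, had 518 and 455. Ctsz, a carboxypeptidase, had a mean of -0.0022, made up of 2 probe sets slightly above 0 and 1 at -0.40. Ctse, an aspartic protease of immune and epithelial cells, had 983 and 1617 on a probe set with a shared-transcript suffix and 89.4 and 65.9 on the other, so its sign was not settled.

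Ctss, a cysteine cathepsin of antigen-presenting cells, was the member furthest from equality in the higher direction by its raw signals, 35.7 and 316. The wild-type value lies below the floor, so the gene was at least 3.71-fold higher. Of 17 macrophage markers on the array 12 were measured, 11 with a log2 ratio above 0 and 1 below, beside 58.3% of all genes above 0. The 5 called higher were Lyz2, C1qb, Adgre1, C1qa and Tyrobp, while 1 was called lower and 6 were not called. Over all genes 8.01% were called higher and 5.93% lower. For 8 of the 12 the wild-type signals lay below the floor, so their ratios could not fall below 0. The median log2 ratio of 0.69 includes these bounds. The summed signal of the brightest probe set of each of the 17 was 1477 in wild-type and 4709 in Slc39a13-KO. Lyz2 gave 255 and 2146 of these sums. The marker called lower was Cd53, with 546 and 156. Aif1, Itgam and Ptprc lay below the floor in both arrays. Cd68, a lysosomal membrane glycoprotein of the same cells, was at least 3.23-fold higher (68.7 and 274). The part of macrophages in the Ctss value was not tested. Of the cathepsins tied to other lineages, Ctsg of neutrophils, Ctsw of cytotoxic lymphocytes and the placental Ctsj, Ctsm, Ctsq and Ctsr were not measured, with no signal above 33.7.

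The lysosomal membrane glycoproteins, which coat the inner face of the lysosome, differed from each other. Lamp1 had 15319 and 15878, a log2 ratio of 0.05. Lamp2, which is also needed for autophagy and is spliced to several final exons, was higher in Slc39a13-KO on 3 of 4 probe sets, with 4534 and 8534, 7205 and 12439.5, and 2608 and 5331. The remaining probe set had 6098 and 5193, a log2 ratio of -0.23 beside 0.79 to 1.03 for the other three. The mean of 0.62 (SD 0.58) fell short of 2-fold, so the gene was not called. Which transcripts each probe set reads was not established here.

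Acp2, the lysosomal acid phosphatase, was above 0 on 3 of 3 probe sets, with log2 ratios from 0.12 to 0.68. It had mean signals of 660 and 883 and a mean log2 ratio of 0.42 (SD 0.28). On the chromosome it is a close neighbour of the deleted gene, with 3 protein-coding genes between Acp2 and Slc39a13 in the RefSeq table of assembly GRCm38.p6. Whether the targeted locus bears on Acp2 was not tested.

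Other genes of the organelle, from lists that hold no member, were counted in the same way. Of 72 measured genes 7 were called higher and 4 lower, with a median of 0.16, and both counts were near the 8.01% and 5.93% of all genes. The 30 hydrolases and activators had a median of 0.50, the highest of the 6 lists, and 20 of them were above 0, beside 58.3% of all genes. Ppt1, which removes fatty acids from proteins, was 2.35-fold higher, Galc, which degrades myelin galactolipid, at least 2.34-fold, Arsb, a sulfatase of dermatan sulfate, at least 2.38-fold and Gaa, the lysosomal α-glucosidase, 2.02-fold. The serine carboxypeptidase Scpep1 was 2.25-fold lower, with 23363 and 10401.

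The accessory and assembly factors of the pump, with the a3 subunit, had a median of -0.06 over 11 genes. Tmem199, an assembly factor of V0, was 2.56-fold lower (837 and 327) and none was called higher. The accessory subunits Atp6ap1 and Atp6ap2 had log2 ratios of -0.06 and -0.09. The 5 subunits of the Ragulator complex, which ties the growth kinase mTORC1 to the lysosome and touches the V-ATPase, were all within 1.5-fold, with a median of -0.07.

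Genes that bring enzymes to the lysosome differed in both directions. Igf2r, the large mannose 6-phosphate receptor, was 2.30-fold lower (4306 and 1869), while M6pr, the small one, had 1846 and 2134. Gnptg, a subunit of the enzyme that makes the mannose 6-phosphate tag, was 2.37-fold higher and the sorting receptor Sort1 at least 2.03-fold. The transcription factors Tfeb and Tfe3, which switch on lysosomal genes, had log2 ratios of -0.12 and -0.0033. Of the cathepsin inhibitors Cst3 (cystatin C) had 14261 and 25761, a log2 ratio of 0.85, Cstb a mean of -0.60, and Cst6 was at least 3.32-fold lower.

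**Figure D3:**
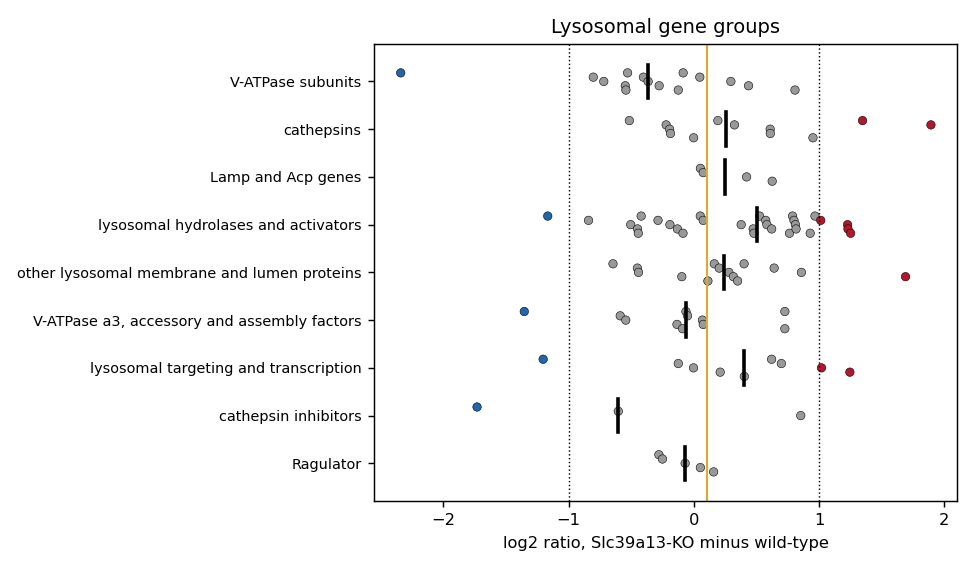
Log2 ratios (horizontal, Slc39a13-KO minus wild-type) of the measured genes of 3 member groups and 6 lists of other lysosomal genes, with 1 gene per point (called higher in red, called lower in blue), a black bar at each median and a yellow line at the median of all measured genes. The V-ATPase median of -0.37 lies left of the yellow line at 0.11, and the medians of cathepsins (0.26) and hydrolases (0.50) lie right of it.

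Many lysosomal genes carry in their promoters the E-box CACGTG, and a longer form of it is bound by Tfeb and Tfe3. The RefSeq promoter table (250 bases before and 50 after a gene's start, GRCm38.p6) held 32 of the 42 member genes. TCACGTG, read on either strand, stood in the promoters of 7 of these (21.9%), beside 4.29% of all genes and 5.00% of protein-coding genes in the table. The core CACGTG, which every such match contains, stood in 9 (28.1%), beside 8.09% of all genes. The 7 genes are shown because they hold both members lower and members higher in the Slc39a13-KO array. Each sequence runs 5′ to 3′ on the strand of the gene, with the matches in capitals.
Atp6v0b, chr4:117887330-117887378, minus strand: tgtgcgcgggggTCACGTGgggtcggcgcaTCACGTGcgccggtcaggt
Atp6v0d1, chr8:105566049-105566080, minus strand: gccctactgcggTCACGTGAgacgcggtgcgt
Atp6v0e, chr17:26676386-26676417, plus strand: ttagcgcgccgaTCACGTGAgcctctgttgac
Atp6v1a, chr16:44139372-44139403, minus strand: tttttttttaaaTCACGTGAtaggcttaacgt
Ctsa, chr2:164833748-164833796, plus strand: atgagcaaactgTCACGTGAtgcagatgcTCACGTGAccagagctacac
Ctsd, chr7:142387907-142387938, minus strand: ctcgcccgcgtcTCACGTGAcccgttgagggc
Lamp1, chr8:13159087-13159163, plus strand: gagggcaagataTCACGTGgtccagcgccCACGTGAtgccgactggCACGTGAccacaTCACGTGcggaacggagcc

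Lamp1 held 4 matches, Atp6v0b and Ctsa 2 each, and Ctsd a further one upstream that is not printed. The log2 ratios of these genes were -0.72 for Atp6v0b, -0.80 for Atp6v0d1, -0.53 for Atp6v0e, -0.09 for Atp6v1a, -0.22 for Ctsd, 0.05 for Lamp1 and 0.61 for Ctsa. Genes with the motif thus lay on both sides of 0, 5 below and 2 above. The match is a description of letters in a window, and binding was not measured.

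Directions in these data depend on how the arrays are scaled. The 24 poly-A control probe sets, which detect bacterial transcripts usually spiked into the RNA, had 24 of 24 log2 ratios below 0 (median log2 ratio -1.02). With the arrays scaled on them the median of all genes moved from 0.11 to 0.94 and that of the V-ATPase subunits from -0.37 to 0.58, so 14 members were called higher and 1 lower in place of 2 and 1, and 96.3% of all calls were higher in place of 57.5%. With median scaling 2 members were higher and 2 lower, the second being Atp6v0d1, and 38.3% of all calls were higher. Lower therefore means lower relative to the bulk of genes.

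Relative to the median of all genes, the order of the groups was steadier. Under the scaling of the authors and 4 others (median, quantile, loess and poly-A) the V-ATPase median lay 0.25 to 0.50 below that of all genes on the log2 scale, and the cathepsin median 0.15 to 0.27 above it, with the exception over floors given above. Median and poly-A scaling add 1 constant to every log2 ratio. Under them, places relative to that median and the order of the groups could change only through the floor. Quantile and loess scaling had no such limit. Of the 12 V-ATPase subunits below the median of all genes as deposited, 11 stayed below it under all 4 other scalings, the exception being Atp6v1b2. Of the 7 cathepsins above it 6 stayed above, the exception being Ctse. The V-ATPase median was below the cathepsin median under every scaling, floor and probe set choice computed, by 0.34 to 0.80.

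**Figure D4:**
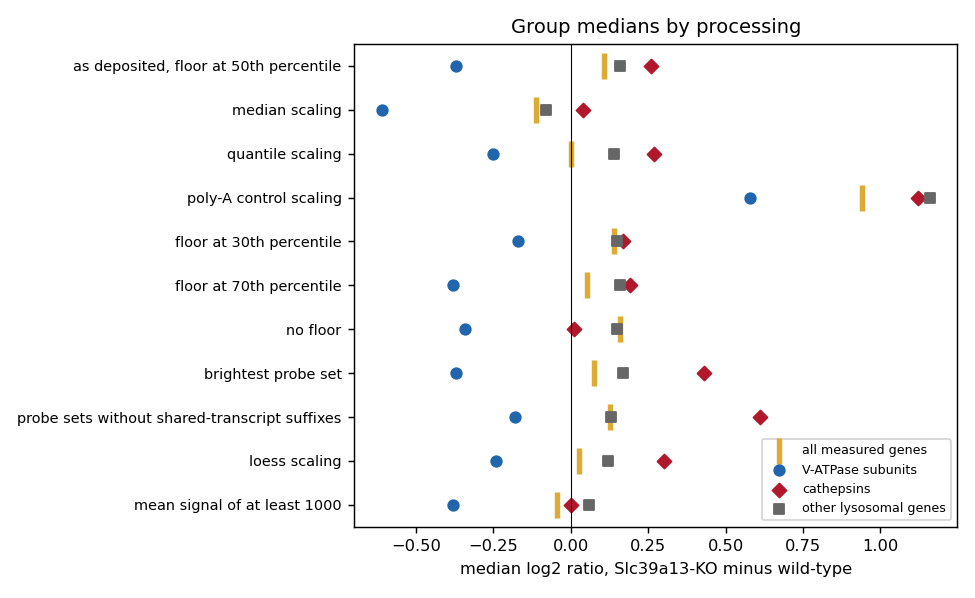
Median log2 ratios (horizontal, Slc39a13-KO minus wild-type) of all measured genes (yellow bars), V-ATPase subunits (blue circles), cathepsins (red diamonds) and other lysosomal genes (grey squares) under each processing choice (vertical). The blue circle lies left of the yellow bar in every row, and with poly-A control scaling all 4 marks shift to the right together, the yellow bar to 0.94.

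The spread between probe sets of a gene, all read on the same 2 arrays, was the only error at hand. It had a median SD of 0.30 over the 16 members with several measured probe sets, beside 0.34 over 5700 such genes, and 7 of the 16 had probe sets of opposite sign. A further 15 members rest on 1 measured probe set.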

How the data were processed

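Biotin-labelled cRNA made from total RNA of 1 wild-type and 1 Slc39a13-KO culture was hybridised to Affymetrix Mouse Genome arrays. These hold 45101 probe sets, 64 of them controls. The deposited values are linear signal intensities that the authors computed per probe set with MAS5, per the labels. The study's methods name gcRMA, but the values are positive linear numbers with the same 2% trimmed mean of 500.003 in both arrays. No source used here gives the MAS5 version. Detection calls were not used. The number of arrays limits the precision. Low MAS5 signals are noisy.

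Gene names came from the platform annotation, and the RefSeq table held 42 of 42 member genes by gene ID, with 0 symbols changed. Signals under 85.1, the 50th percentile of all non-control values, were raised to this floor and log2 was taken. A gene's log2 ratio is the mean over its probe sets above the floor in at least 1 array. With 1 signal at the floor the ratio is a bound ("at least"). No test was run and no p-value computed. A called gene has a mean of at least 2-fold and all measured probe sets of 1 sign. Every member was accounted for, with signals for called members, for those with a probe set at 2-fold or more and for the 3 largest differences in each subgroup. List genes were named if called, apart from the chondrocyte markers, and a few others after their values were seen. The members and lists were chosen with earlier results of these data known. Calling was tested on simulated data. Alternatives were median, quantile, loess and poly-A scaling, other floors, the brightest probe set, probe sets without shared-transcript suffixes, other fold thresholds and bright genes only, of which loess and bright genes were added after seeing the data. Python 3.11.15, numpy 2.4.6, pandas 2.3.3 and statsmodels 0.14.6 were used.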

Additional observations from a re-analysis of the deposited data

How the results depend on the processing

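As deposited, 2 members were called higher and 1 lower. The counts became 2 and 2 with median scaling, 14 and 1 with poly-A control scaling, 1 and 0 with a floor raised to the 70th percentile, 4 and 4 without any floor (42 genes, dim probe sets included), 6 and 3 at a 1.5-fold threshold with probe sets of 1 sign, 1 and 1 at 3-fold, and 0 and 0 among genes with a mean signal of at least 1000. With poly-A scaling the medians were 0.90 for all measured members, 0.58 for V-ATPase subunits, 1.12 for cathepsins and 1.16 for other lysosomal genes, beside 0.94 for all genes. The cathepsin median was 0.61 over the 9 measured by probe sets without shared-transcript suffixes, and with no floor it was 0.01, below the 0.16 of all genes. Other alternatives moved no group median by 0.34 or more, the median SD between probe sets of a gene. Probe sets without shared-transcript suffixes left 13 V-ATPase subunits, without Atp6v0b and Atp6v0e. Their median was -0.18 beside 0.13 for all genes, and 8 of the 13 lay below that of all genes, in place of 12 of 15 as deposited. Of 267 single-gene values under the alternatives 216 moved by less than the gene's own SD between probe sets (0.34 where it had 1). A further 50 moved by more, 30 of them with poly-A scaling, and 1, Ctsf with no floor, was counted apart as reversed. With no floor, where dim probe sets enter, 6 of 31 members had another sign than as deposited, among them the called Ctsf (-0.10), Ctso (-0.36) and Atp6v1h (1.28). With poly-A scaling 15 had another sign, and with each other alternative 1 to 3. With 1 array per genotype no array could be left out. No paired analysis was possible because each group holds 1 sample. Signals near the floor limit Atp6v0e2, Atp6v1e2, Ctss and Acp5.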
